A study of Actinidia chinensis with 12 samples.

Results

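The genes described here had no reads in Hongyang, a red-fleshed kiwifruit cultivar, and were seen in Jinyan, a yellow-fleshed cultivar. They were chosen by their counts in both cultivars: 0 counts in all 6 Hongyang libraries, and an average over the 6 Jinyan libraries of at least 1 CPM (counts scaled to a library total of 1000000). This held for 60 of 39040 gene identifiers. RNA came from ripened fruit taken just after harvest, as 3 libraries from whole fruit and 3 from the flesh core of each cultivar. The labels name no treatment, age or tree, the same ripe stage is given for all 4 groups, and the series design calls the non-core samples the fruit periphery. Whether replicates are separate fruits, trees or pools is not stated, so p-values measure only the spread between these libraries.

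The core, or columella, is the pale central tissue of a kiwifruit that carries vascular strands and stores starch, and the seeds lie in the flesh around it. Kiwifruits (Actinidia) have separate male and female plants, cross readily between species and differ in ploidy. Jinyan itself was bred from a cross of A. eriantha with A. chinensis, whereas Hongyang is a selection of A. chinensis, the species that the labels give for both. Gene content and alleles are therefore known to vary between cultivars. A count of 0 means that no read was assigned to an identifier. Whether a member is missing from the Hongyang genome, silent in its ripe fruit or present as an allele whose reads were not assigned was not tested, since counts hold no sequence. Identifiers of the form used here, with the prefix Achn, were introduced with the published draft genome of Hongyang. The sources used here do not say whether the reads were aligned to that genome. The table pairs no identifier with a gene name, so no function is given for any member, and markers of core, skin or seed tissue were not checked. These are bulk samples, in which fewer cells of a type and less RNA per cell cannot be told apart.

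Library totals ran from 6870519 to 10030539 counts in Jinyan whole fruit and from 16364341 to 18587778 in Jinyan core. In Hongyang they ran from 11616051 to 21222578 counts except in whole fruit replicate 3, with 1888744. In 5 of the Hongyang libraries 3 counts, the limit that a count of 0 allows, stood for 0.141 to 0.258 CPM, below the Jinyan mean of every member. In whole fruit replicate 3 they stood for 1.59 CPM, and 27 of the 60 members had a Jinyan mean at or below that, so the 0 in this library says little about them. Over all 6 Hongyang libraries together the limit was 0.0342 CPM. Against it the members were at least 18.7-fold to 1030-fold lower in Hongyang than in Jinyan, with a median bound of 50-fold. These values describe the choice of the members and carry no test. Such limits cover counting error only, and they take each count as independent. If the mates of a read pair were counted separately, which was not tested, the limits would be higher and all fold bounds given here smaller.

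Most members were weakly expressed. Their Jinyan means ran from 1.02 to 36.4 CPM with a median of 1.82, while the median was 9.98 CPM over the 18576 genes that averaged 1 CPM or more in Jinyan. A mean under 2 CPM was found for 31 members, 22 lay between 2 and 5, 4 between 5 and 10, and 3 above 10. Summed over the 6 Jinyan libraries, a member had between 50 and 2743 counts, with a median of 133.5. Of all genes with at least 1 CPM in Jinyan, 0.323% had no Hongyang reads. Split by level, that was 31 of 2287 genes between 1 and 2 CPM (1.36%) and 22 of 3694 genes between 2 and 5 CPM (0.596%). It was 4 of 3315 genes between 5 and 10 CPM, 3 of 6398 genes between 10 and 50 CPM and 0 of 2882 genes at 50 CPM or more. These shares follow from the values that chose the members and are given as a description.

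A count of 0 was the most frequent of the low Hongyang counts. The rule used these counts, so their distribution is given as a description. Among the genes with at least 1 CPM in Jinyan, 60 had 0 Hongyang counts over the 6 libraries, 3 had 1 count, 19 had 2 counts and 24 had 3 to 5 counts. A further 29 genes had 6 to 10 counts and 69 had 11 to 20. Of the 22 genes with 1 or 2 Hongyang counts, all 22 had them in a single library, 7 of them in core replicate 3 and 5 in core replicate 2. Even numbers were in excess in this table: 57.3% of 40865 Jinyan counts between 1 and 20 over all genes were even. Among the members the share was 57.4% of 129 such counts, from 36.4% in core replicate 1 to 68.4% in core replicate 2. Whether so few counts hold an excess was not tested. Whether the mates of a read pair were counted separately was not tested.

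**Figure D1:**
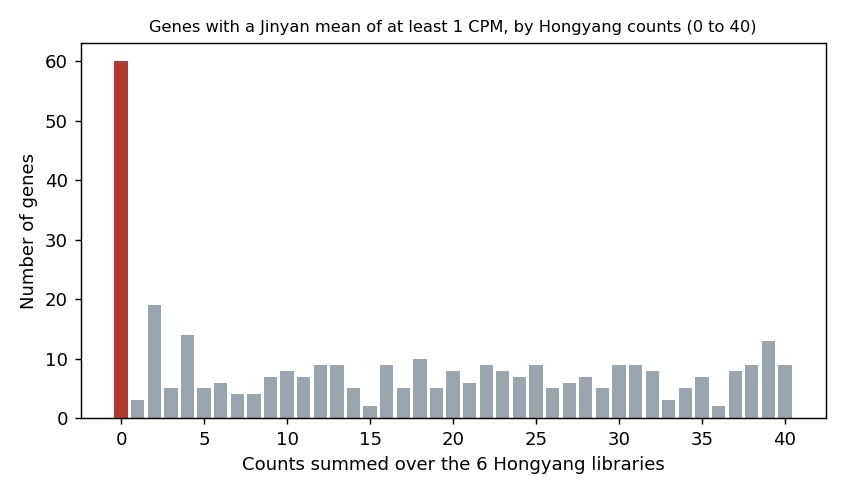
Number of genes (vertical axis) with each total of counts over the 6 Hongyang libraries (horizontal axis, 0 to 40), for genes with a Jinyan mean of at least 1 CPM. The red bar holds the 60 members at 0 counts, against 3 genes at 1 count and 19 at 2 counts.

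Genes just inside and just outside the rule are named here, and the number of members at other thresholds is given at the end. The lowest members were Achn376251, with a Jinyan mean of 1.02 CPM, and Achn199301, with 1.03 CPM. Just under the level were Achn179001 with 0.993 CPM and Achn275361 with 0.983 CPM, which also had no Hongyang reads. Kept out by their Hongyang reads alone were Achn198081, at 11.6 CPM in Jinyan, and Achn255471, at 10.5 CPM. Achn198081 had counts of 99, 110 and 205 in Jinyan whole fruit and 141, 81 and 146 in Jinyan core, and its 2 Hongyang counts both lay in core replicate 2. Achn255471 had counts of 239, 0 and 283 in Jinyan whole fruit and 0 in each core library, and both of its Hongyang counts lay in whole fruit replicate 2. The first of these genes was thus seen throughout Jinyan, the second in a pair of libraries only.

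The level of each member in Jinyan is given below as CPM scaled by TMM factors (trimmed mean of M values), which adjust the library totals for differences in composition, in the order of replicates 1, 2 and 3. Achn365111 was the most abundant member, at 34.0, 36.0 and 40.2 CPM in Jinyan whole fruit and 26.0, 42.5 and 56.4 CPM in Jinyan core. It was seen at a like level in all 6 libraries, the tissues overlapped, and the core libraries spread more widely than those of whole fruit. Achn180331 followed at 26.7, 22.7 and 25.4 CPM in whole fruit and 26.7, 32.8 and 30.8 CPM in core. Its coefficient of variation over the 6 libraries was 13.4%, close to the smallest among the members, the 13% of Achn052031. By library totals, these top 2 members held 29.5% of the summed mean CPM of all 60.

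Achn181721 stood at 16, 12.6 and 10.7 CPM in whole fruit and 10.2, 7.37 and 8.74 CPM in core. Each of its core libraries lay below each whole fruit library. Achn229801 stood at 7.47, 7.15 and 10.3 CPM in whole fruit and 8.33, 14.0 and 10.3 CPM in core, with overlapping tissues. Achn352611 stood at 10.5, 6.18 and 9.14 CPM in whole fruit and 7.23, 4.44 and 16.2 CPM in core. It varied most of the 6 most abundant members, with a coefficient of variation of 46.3% over the 6 libraries, and its highest and lowest values were both in the core. Achn390771 stood at 5.38, 3.15 and 3.42 CPM in whole fruit and 8.03, 7.79 and 9.91 CPM in core, where each library exceeded each whole fruit library. By library totals, as in the rule, the other 54 members had Jinyan means of at most 5.57 CPM. Achn052031, the steadiest member, was at 5.51, 4.97 and 7.20 CPM in whole fruit and 5.51, 6.11 and 6.12 CPM in core.

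**Figure D2:**
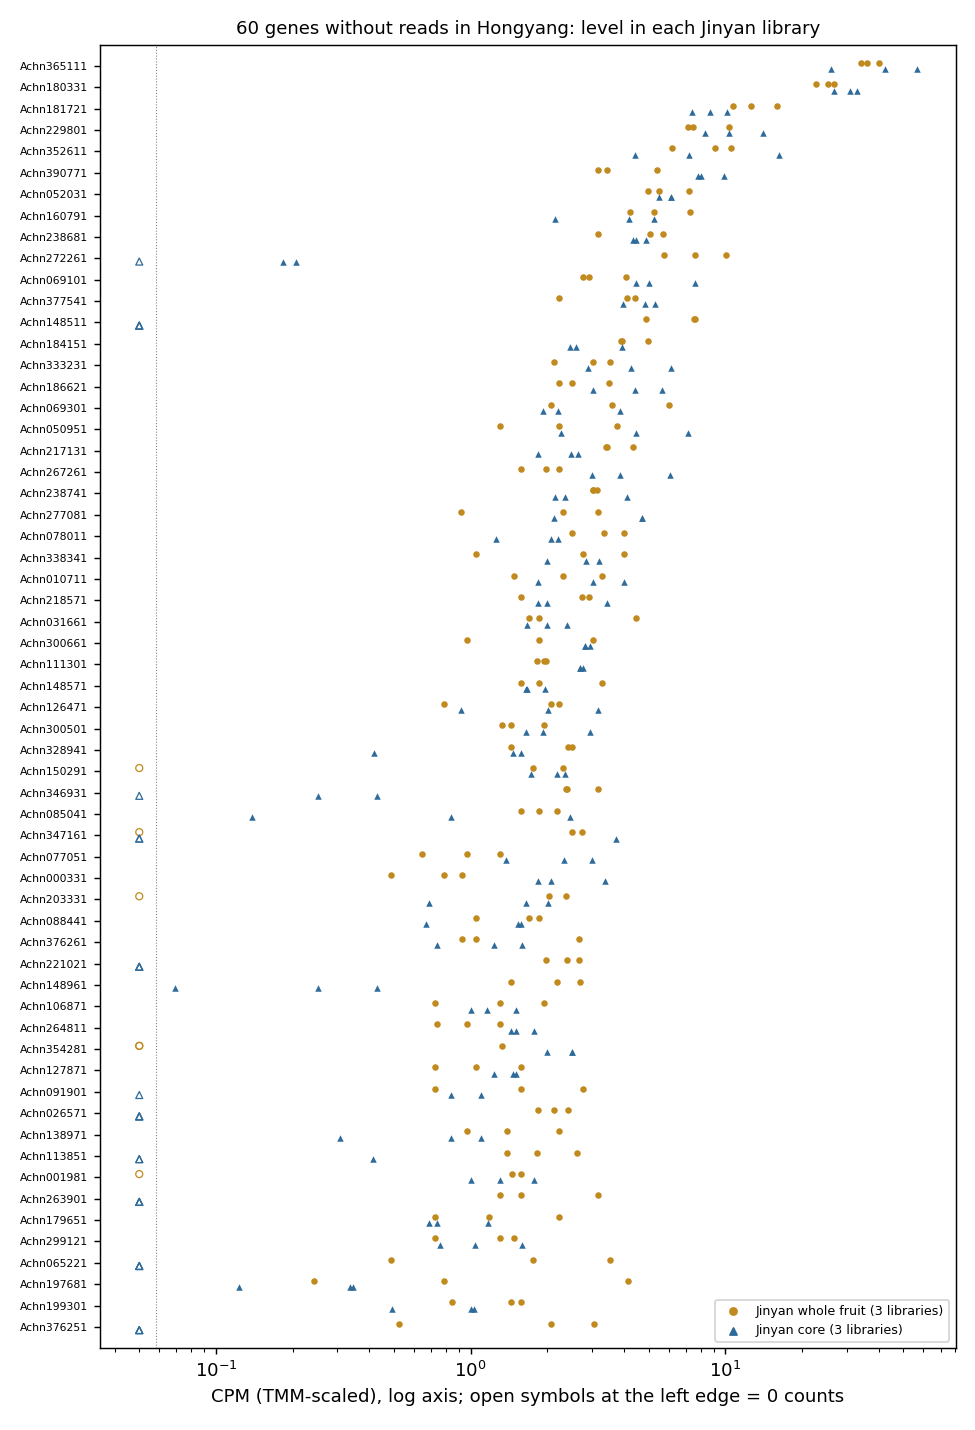
TMM-scaled CPM (horizontal log axis) of the 60 members, in the order of their Jinyan mean, in 3 Jinyan whole fruit libraries (circles) and 3 Jinyan core libraries (triangles); open symbols at the left edge mark 0 counts. Most members lie between 1 and 10 CPM in both tissues, and 6 have open symbols for all core libraries.

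Most members had reads in every Jinyan library, which follows in part from the mean of at least 1 CPM that chose them. The share of all genes at that level with reads in all 6 is not given here. Reads were found in all 6 Jinyan libraries for 45 members, in 5 libraries for 6, in 4 for 2 and in 3 for 7, and none rested on fewer. The whole fruit libraries held reads of 57, 58 and 59 members and the core libraries of 51, 51 and 53, although the core libraries were the deeper ones. Summed over the members, the level was 223, 219 and 238 CPM in whole fruit and 191, 222 and 238 CPM in core, so the tissues overlapped. For the 45 members with reads in all 6 libraries, the mean levels of the tissues ranked alike across genes (Spearman rho of 0.776, n = 45 genes measured in the same libraries, a description). The median coefficient of variation of these 45 was 29.6% in whole fruit and 34.0% in core, against 17.6% and 20.7% over all genes tested, whose counts were mostly higher.

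For 4 members a single library held over 50% of the summed CPM of the 6 Jinyan libraries. Achn197681 had 69.4% of it in whole fruit replicate 3, with counts of 6, 2 and 45 in whole fruit and 2, 4 and 5 in core. Achn065221 had 61.3% in whole fruit replicate 1, with counts of 27, 4 and 19 in whole fruit and 0 in each core library. The remaining 2 were Achn376251 and Achn263901. In all 4 the library with the largest share came from whole fruit. Achn347161, singled out after its values were seen, had counts of 21, 0 and 27 in whole fruit and 0, 0 and 54 in core, so that both tissues had libraries with and without reads.

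The difference between core and whole fruit within Jinyan was not used to choose the members and was tested with edgeR's quasi-likelihood test on the whole table, with Benjamini-Hochberg adjustment over all 22199 genes tested and a threshold of 0.05. Of the 60 members, 57 had enough counts to be tested. A member can pass that filter through a single tissue. Lower levels in the core were called for 5 of the 57, against 8.46% of all genes tested, and higher levels for 0, against 8.15%. The share called lower was 8.77%, near the background, and reads as no result about the members. At an unadjusted p under 0.05 in edgeR, 8 members were lower and 2 were higher, against 16.6% of all genes tested in each direction. DESeq2 called 6 lower and 1 higher (12.1% of all genes in each direction), limma voom with sample weights 9 lower and 4 higher (16.2% and 18.5%), and edgeR on the 6 Jinyan libraries alone 9 lower and 3 higher (18.3% and 16.7% of 19621 genes). The fitted difference was negative for 30 tested members and positive for 27, with a median of -0.02 (log2, core minus whole fruit) against 0.04 over all genes tested. It was under 2-fold in either direction for 42. Without Jinyan whole fruit replicate 2, 3 of 59 tested members were lower and 1 was higher, against 3.36% and 2.62% of all genes, and without replicate 3 it was 3 and 0 of 57, against 3.79% and 3.03%. Without Hongyang whole fruit replicate 2, 9 of 60 were lower and 1 was higher, against 12.1% and 12.3% of all genes, and without the shallow replicate 3 the members' counts were the same, against 13.8% and 13.9%. With library totals in place of TMM factors, the median of all genes lay at -0.40 and that of the members at -0.48.

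Among tested genes with a Jinyan mean of 1 to under 5 CPM, where most members lie, 8.77% were called lower and 3.77% higher in the core. Of the 50 tested members in that range, 5 (10%) were called lower. Without regard to the test, every core library lay below every whole fruit library for 11 of the 57 tested members, against 22.2% of all genes tested, and above for 8, against 25.9%.

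The members called lower in the core were Achn148511, Achn221021, Achn026571, Achn263901 and Achn272261. The last 3 were named after their values were seen, since only 5 members were called. All 5 reached the mean of the rule and the filter for testing through whole fruit, with at most 6 core counts each. For a gene let in that way the direction of a call was set beforehand. The calls, also those kept under alternatives, therefore describe these genes and carry no support beyond that. Achn148511 stood at 7.60, 7.51 and 4.90 CPM in whole fruit, from counts of 58, 62 and 53, and had 0 counts in the 3 core libraries. Its whole fruit mean was 6.67 ± 1.54 CPM (SD, n = 3), and it was at least 92.4-fold lower in the core (edgeR adjusted p = 0.0031). The call was kept under all 22 alternatives tried, with adjusted p of 3.3e-09 to 0.020.

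Achn272261 stood at 5.77, 7.63 and 10.1 CPM in whole fruit and at 0.184, 0 and 0.206 CPM in core, from 6 counts in all there. It was the only called member with core reads, and no library of either tissue overlapped with the other. Its mean fell from 7.82 ± 2.16 CPM (SD, n = 3) in whole fruit to 0.130 ± 0.113 CPM (SD, n = 3) in core, a log2 fold change of -5.74 ± 0.76 (SE; edgeR adjusted p = 0.0030). This call too was kept under all 22 alternatives (adjusted p of 3.9e-10 to 0.021).

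Achn221021 stood at 1.97, 2.67 and 2.40 CPM in whole fruit, Achn026571 at 1.84, 2.42 and 2.12 CPM and Achn263901 at 1.31, 3.15 and 1.57 CPM, and all 3 had 0 counts in each core library. The bounds were at least 33.5-fold for Achn221021 (edgeR adjusted p = 0.012), 30.4-fold for Achn026571 (adjusted p = 0.014) and 28.3-fold for Achn263901 (adjusted p = 0.017). These calls were less firm. Without whole fruit replicate 2 the adjusted p was 0.052 for Achn221021, 0.056 for Achn026571 and 0.069 for Achn263901, and without whole fruit replicate 3 it was 0.053 for Achn026571 and 0.054 for Achn263901. Achn263901 also lost its call without core replicate 2 or 3 (adjusted p of 0.054 and 0.052) and with DESeq2 (0.21). Each of these 3 genes was tested under 20 of the 22 alternatives, and not at equal depth or at a mean of at least 5 CPM. Over those 20 the adjusted p ran from 1.3e-04 to 0.052 for Achn221021, from 1.5e-04 to 0.056 for Achn026571 and from 4.3e-04 to 0.21 for Achn263901. Without core replicate 1 the bounds were 20.7-fold, 18.8-fold and 17.5-fold in the same order, and that of Achn148511 was 57.2-fold, since fewer counts then stand behind the 0. Without core replicate 3 they were 22.1-fold, 20.1-fold and 18.7-fold, with 61.0-fold for Achn148511.

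**Figure D3:**
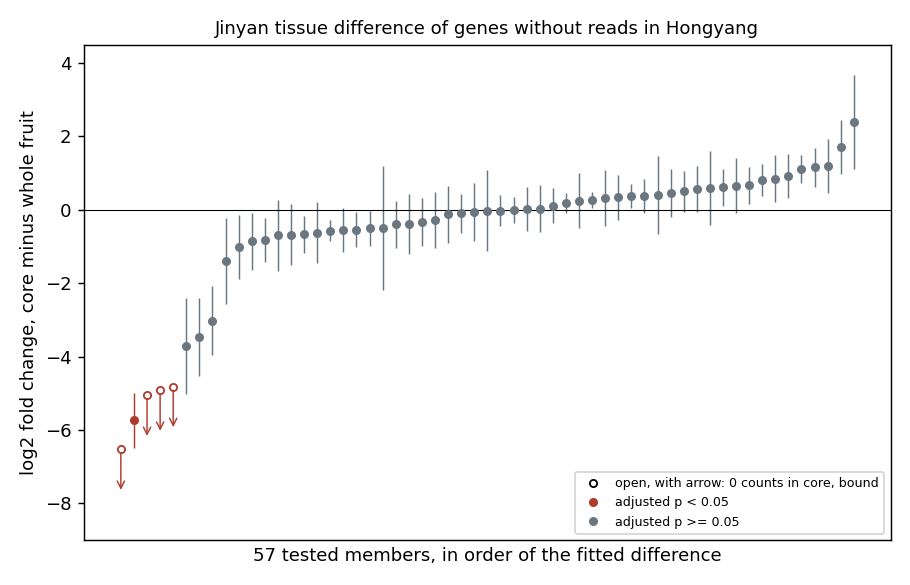
Fitted log2 fold change of core minus whole fruit in Jinyan (vertical axis, bars show the standard error) for the 57 tested members, in rising order. Red marks the 5 members called lower; 4 of them have 0 counts in the core and are drawn open at their bound against 3 counts, with an arrow, and no member is called higher.

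Achn376251 and Achn065221, which were not tested, also had no core reads, which brings the members with reads in whole fruit only to 6 of 60 (10%). No member was seen in core only. Among all genes with at least 1 CPM in Jinyan, 0.323% had 0 counts in the 3 core libraries and 0.0646% had 0 counts in the 3 whole fruit libraries. Among those between 1 and 5 CPM, the range in which the 6 members lie, 0.836% had 0 core counts. The 10% is a share of all 60 members, not only of those in that range. The rule also asks for 0 counts in the Hongyang core libraries. A gene silent in the core of both cultivars meets that part without any difference between them. The share among the members is thus partly set by the choice, and its difference from the other shares was not tested. The whole fruit means of the 6 members ran from 1.88 to 6.67 CPM, above the 0.0701 CPM that 3 counts over the core libraries stand for, and their bounds from 26.7-fold to 92.4-fold. The bound of Achn065221 was 16-fold without whole fruit replicate 1, and without core replicate 1 and 3 it was 16.5-fold and 17.6-fold, while that of Achn376251 was 26.8-fold over all libraries and 16.6-fold and 17.7-fold without the same core libraries. Achn376251 had counts of 4, 17 and 33 in whole fruit. When every gene with a read was tested, so that all 60 members entered, 7 were called lower in the core, against 6.19% of 30507 genes, and 0 higher, against 5.83%. The 7 were the members named above with Achn376251 (edgeR adjusted p = 0.017) and Achn065221 (adjusted p = 0.019). Achn376251 and Achn065221 too had reached the mean of the rule through whole fruit alone. For a gene seen in whole fruit only, the Hongyang libraries to compare are those of whole fruit, where 3 counts over the 3 libraries stand for 0.0940 CPM.

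**Figure D4:**
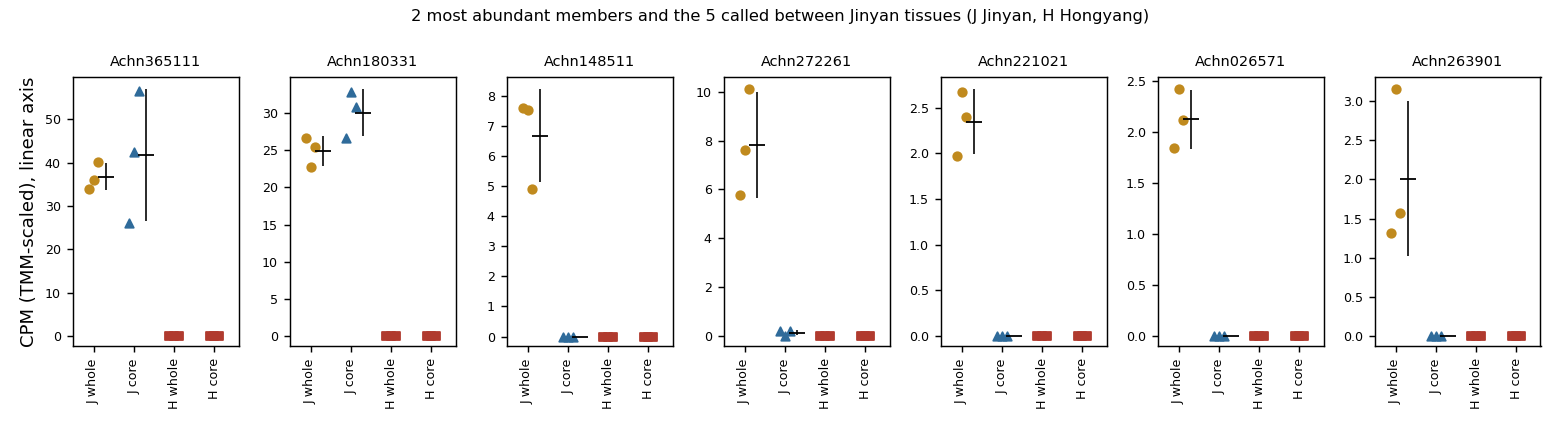
TMM-scaled CPM (linear axis) in each of the 12 libraries for the 2 most abundant members and the 5 members called between the Jinyan tissues, with the mean and SD of the Jinyan groups (n = 3) beside the points. Hongyang libraries are all at 0; Achn365111 and Achn180331 have reads in both Jinyan tissues, and the other panels have reads in whole fruit and at most 6 counts in core.

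Of the most abundant members, none passed the test between tissues. Achn390771 came nearest, with 3.98 ± 1.21 CPM (SD, n = 3) in whole fruit and 8.57 ± 1.16 CPM (SD, n = 3) in core, a log2 fold change of 1.11 ± 0.38 (SE; edgeR adjusted p = 0.071). Its adjusted p was 0.010 with the 6 Jinyan libraries alone, 0.0021 with limma voom and 0.035 with DESeq2. In edgeR it was 0.28 with library totals only, 0.21 at equal depth and 0.10 with the replicate block. Only 6 of 22 alternatives called this gene. For Achn365111 the log2 fold change was 0.18 ± 0.28 (SE; adjusted p = 0.70) and for Achn180331 it was 0.27 ± 0.21 (SE; adjusted p = 0.40). Achn181721 had -0.57 ± 0.29 (SE; adjusted p = 0.21). Its adjusted p was 0.038 with the 6 Jinyan libraries alone and up to 0.51 under other settings, and 2 of 22 alternatives called it. Achn229801 had 0.38 ± 0.32 (SE; adjusted p = 0.44) and Achn352611 had 0.11 ± 0.47 (SE; adjusted p = 0.90). With library totals only, the values of Achn365111, Achn180331, Achn229801 and Achn352611 were negative, as given with the other settings at the end.

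The reverse class, genes without Jinyan reads that averaged 1 CPM or more in Hongyang, held 113 identifiers. That was 0.572% of the 19760 genes at that level in Hongyang. Its median level of 1.81 CPM in Hongyang was close to the 1.82 CPM of the members in Jinyan, and 60.2% of it lay under 2 CPM against 51.7% of the members. Its most abundant gene reached 2120 CPM, against 36.4 CPM for the members. Of the 113 genes in the reverse class, 11 had reads in Hongyang whole fruit only and 3 in Hongyang core only, against 6 and 0 of the 60 members in Jinyan. The share of all genes at that level without reads in a Hongyang tissue is not given here. Of 101 tested genes of the reverse class, 7 were called lower in Hongyang core (2.18% of all genes tested) and 3 higher (2.50%). The 2 classes were measured in different libraries and their difference was not tested.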

How the data were processed

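The deposited values are raw counts by gene identifier, in whole numbers, with 1 column for each of 12 libraries, matched to samples by the description label. The submitters' processing notes name Trimmomatic 0.36 and HISAT2 2.1.0. Per the labels' protocols, poly(A) RNA was sequenced in pairs, and no strand-marking step is named, so antisense and overlapping genes cannot be told apart. The sources used here name neither a counting program nor a genome build, nor how reads with several matches were treated, which leaves counts of near-identical copies uncertain.

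The members, tests, alternatives and naming rule were chosen with earlier results of these data known. Named were the 6 most abundant members, the 2 called with the largest difference in each direction, up to 2 seen in a single tissue or carried by a single library, the steadiest, and those around the thresholds. Counts were fitted with edgeR 4.0.16 (R 4.3.3; filterByExpr, TMM, 1 quasi-likelihood model of 4 group means over 12 libraries) and tested two-sided. Within groups, the biological coefficient of variation was 0.165 for whole fruit and 0.235 for core in Jinyan, and 0.514 and 0.242 in Hongyang, and 1 shared estimate was used. Limma 3.58.1 and DESeq2 1.42.0 gave alternatives. A fold against 0 counts is a bound against 3 counts over the libraries at 0. In simulated data for this contrast with 22199 genes, 68% of 4-fold and 12% of 2-fold changes were recovered. The changed genes were drawn from tested genes with at least 1 CPM over the 12 libraries pooled. They were simulated with reads in Hongyang, so these shares need not hold for the members. Replicates differed by more than counting noise in every pair (chi-square of 5.76 to 126 per degree of freedom).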

Additional observations from a re-analysis of the deposited data

How the results depend on the processing

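The number of members was 147, 29, 7 and 3 at a minimum Jinyan mean of 0.5, 2, 5 and 10 CPM, 106 when at most 5 Hongyang counts were allowed, 37 when at least 1 CPM was asked in both Jinyan tissues, and 123 at equal depth, 50 of them among the 60. Leaving out a library gave 53 to 79. All genes called between the Jinyan tissues (3688, 49.1% higher in core) were 6878 with the 6 Jinyan libraries alone, 7698 with limma voom, 1690 at equal depth and 1382 to 6423 with a library left out, the highest without Hongyang whole fruit replicate 3. With library totals only, 13.8% were higher in core. Members called higher were 3 with the Jinyan libraries alone (16.7% of all genes), 1 with DESeq2 (12.1%), 1 with halved counts (10.2%), 4 with limma voom (18.5%) and 0 to 1 with a library left out. Members called lower were 9 of 57 with the Jinyan libraries alone (18.3% of all genes), 9 of 57 with limma voom (16.2%), 8 of 57 with library totals only (18.8%), 8 of 48 with halved counts (10.1%), 2 of 12 at equal depth (5.36%), 2 of 11 at a mean of at least 5 CPM (10.4%) and 3 to 9 with a library left out; 3 were called without Jinyan whole fruit replicate 2 and 3 without replicate 3, and 9 when either replicate 2 or replicate 3 of Hongyang whole fruit was dropped. The cause was not tested. The replicate block, which adds the replicate number to the fit, gave 3500 genes. Of 57 members it called 5 lower (8.4% of all genes) and 0 higher (7.37%). Same-numbered Jinyan libraries deviated from their group means with correlations of -0.021, -0.018 and 0.048, and differently numbered ones with -0.034 to 0.054. No shared deviation was thus seen, but this cannot tell whether same-numbered libraries came from the same fruits, which is not stated. Uncalled differences of abundant members changed sign. With library totals only, the log2 values were -0.30 for Achn365111, -0.19 for Achn180331, -0.09 for Achn229801 and -0.34 for Achn352611. With a library left out they ran from -0.08 (without Jinyan core replicate 3) to 0.45 for Achn365111 and from -0.53 (without the same library) to 0.46 for Achn352611. Achn352611 was at -0.20 at equal depth, -0.05 with the replicate block and -0.07 without Jinyan whole fruit replicate 2.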

Other observations

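Some members lay close together in the numbering of the identifiers, whose order in the genome was not used here. Achn376251 and Achn376261 adjoined each other, and both Achn148511 and Achn148571 and the pair of Achn238681 and Achn238741 lay 6 identifiers apart. In the first of these pairs, Achn376251 had no core reads, while Achn376261 stood at 0.735, 1.59 and 1.24 CPM in Jinyan core. Achn148511 had no core reads either, while Achn148571 had a mean of 2.23 CPM in Jinyan whole fruit and 1.76 CPM in core. In the third, both genes had reads in all 6 Jinyan libraries, with means of 4.64 CPM in whole fruit and 4.57 CPM in core for Achn238681 and 3.06 and 2.86 CPM for Achn238741.

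Another 118 identifiers adjoin a member in number without being members. Of these, 36.4% had 0 Hongyang counts, against 26.9% of all identifiers, 25.4% had 0 counts in both cultivars, against 21.9%, and 11% had reads in Jinyan only, against 5.02%. Their median level was 0.243 CPM in Hongyang, against 1.08 CPM over all identifiers, and 0.359 CPM in Jinyan, against 0.748 CPM, so it was lower than that of all identifiers in both cultivars. For the 223 identifiers that adjoin a gene without reads in Jinyan, 33.6% had 0 Jinyan counts, against 27.9% of all identifiers. These shares were looked at after the members were known and were not tested.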
